A study of Caenorhabditis elegans with 53 samples.

Results

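The his genes of Caenorhabditis elegans code for histones, the proteins that package DNA. Every gene of the deposited count table whose name is his followed by a number was taken, which gave 72 of the 41897 genes in the table. They comprise 17 genes for H2A, 17 for H2B, 16 for H3, 16 for H4, 5 for the H3 variant H3.3 and 1 for the linker histone H1. RNA had been sequenced from purified nuclei of neurons (neuronal IP) and from the whole preparation of nuclei (input) at 4 stages.

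All animals carried otIs790, the UPN::INTACT transgene, which puts a tag on the nuclei of neurons under a pan-neuronal promoter so that they can be pulled down. Control neuronal IP libraries came from L1 larvae at 8 ± 1 hours after plating (n = 4), L2 larvae at 21 ± 1 hours (n = 5), L4 larvae at 40 ± 2 hours (n = 6) and adults at 53 ± 2 hours (n = 7). Control input libraries came from the same stages and hours (n = 4, 3, 4 and 5). Mutant neuronal IP libraries came from lin-4(e912) null L1 larvae at 8 ± 1 hours (n = 3) and lin-4(e912) null adults at 57 ± 2 hours (n = 4). Further mutant libraries came from lin-14 gain-of-function (gof) adults at 57 ± 2 hours (n = 5) and lin-28 gof adults at 53 ± 2 hours (n = 3). The growth protocol gives these alleles as lin-14(ot1087) and lin-28(ot1088), whereas the genotype labels give lin-14(e1087) for the first and lin-14(e1088) for the second. The labels of the 3 libraries titled lin-28 gof thus name different genes, libraries were grouped by title, and which gene is altered in them rests on the title and the protocol. Each larval L1 or L2 replicate pooled about 600000 animals and each L4 or adult replicate about 200000. Whether replicates were separate cultures is not labelled, and p-values therefore cover the spread among these libraries, which may be technical.

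Core histones H2A, H2B, H3 and H4 form the nucleosome around which DNA is wound, and H1 binds the DNA between nucleosomes. Most animal core histone genes lie in clusters, have no introns and are transcribed while DNA is replicated, and their mRNAs end in a stem-loop that is bound by a protein that worms encode in cdl-1. H3.3 genes are transcribed outside S phase too, and H3.3 is placed on DNA independently of replication. Neurons have left the cell cycle, whereas in the whole worm the germline divides through larval life into adulthood.

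Of the 72 members, 35 were listed at a location of their own and 37 shared their listed exons with another member. The shared ones lay on chromosomes II (12 genes), IV (13) and V (12). Of these 37, 36 had 0 counts in all 38 control libraries and his-57 had 60 counts in total, so the nearly identical copies of the clusters were not measured here and nothing is said of their level. How reads with several matches and the strand of a read were treated is not given in the sources used here. Levels of his genes with near-identical copies are therefore uncertain. All 35 members with a location of their own passed the filter on low counts, and their lowest total over the 38 libraries was 692 counts. They were 5 H2A, 6 H2B, 9 H3, 9 H4, 5 H3.3 genes and 1 H1 gene at 17 loci, where neighbours within 5000 bases count as 1 locus. The exons of his-4, his-8 and his-24 partly overlapped genes that are no members.

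The 17 loci are named here by the files' chromosome and coordinates, whose genome build is not given in the sources used here and which are not those of the WBcel235 annotation. Chromosome IV held his-59, his-60, his-61 and his-62 (7485823 to 7488648), his-63 and his-64 (11406429 to 11407405), his-48 (11324723 to 11325094) and his-31 with his-32 (8333659 to 8334702). Chromosome V held his-1 to his-4 (16040124 to 16042811), his-5 to his-8 with his-39 (8532694 to 8536694), his-17 with his-18 (8897560 to 8898517), his-35, his-37 and his-41 (9544744 to 9547495) and his-74 (12659852 to 12660309). Chromosome I held his-67 and his-68, chromosome II his-42 and his-73 apart, and chromosome III his-69 with his-70, and apart from them his-72. Chromosome X held his-38 with his-40, and apart from them his-71 and his-24. A listed intron was found in 8 of the 35, namely his-24 (H1), his-35 (H2A), his-37 (H4), his-39 and his-41 (H2B) and his-71, his-72 and his-74 (H3.3), and the other 27 had none. Grouping the members by intron and by locus was chosen after their values were seen and serves as description.

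Totals over the 38 control libraries lay between 8582120 and 53251753 counts. At each of the 4 stages, neuronal IP exceeded input for all 16 genes of a pan-neuronal list. Some libraries stood apart. L2 neuronal IP libraries 3 and 5 had summed pan-neuronal levels of 6022 and 7266 CPM (counts put on the same total in every library), against 11318 to 18693 CPM in the other L2 neuronal IP libraries, and they were high in many members, as was L1 neuronal IP library 4. L4 neuronal IP libraries 4 and 2 had 4058 and 5218 CPM, against 11076 and 10627 CPM in libraries 5 and 6. Members held 0.534 and 0.462% of counts in the first pair and 0.218 and 0.198% in the second. Adult neuronal IP libraries 5 to 7 had 5160 to 5981 CPM, against 8135 to 17248 CPM in libraries 1 to 4. Members held 0.332 to 0.549% in the former and 0.353 to 0.609% in the latter. The part of such differences in the member values was not tested. Adult libraries 1 to 3 and 4 to 7, and L4 libraries 1 to 3 and 4 to 6, differed from each other, which was known from earlier results of these data and is no batch of the labels. Library sizes for CPM were scaled with TMM, a method that sets the typical gene to no change. In bulk RNA, fewer cells of a type and less RNA per cell cannot be told apart.

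The members took a small share of the counts, and on average a smaller one in neuronal IP than in input. They held 0.194 ± 0.0950%, 0.227 ± 0.116%, 0.344 ± 0.134% and 0.453 ± 0.115% of counts (mean ± SD) in L1, L2, L4 and adult neuronal IP, against 0.622 ± 0.110%, 0.466 ± 0.0389%, 0.573 ± 0.128% and 0.780 ± 0.214% in the inputs of the same stages. At L1 the shares did not overlap, with 0.111 to 0.323% in neuronal IP and 0.547 to 0.780% in input. At L2 they did not overlap either, with 0.123 to 0.393% in neuronal IP and 0.422 to 0.495% in input. At L4 and in adults the ranges overlapped. The rise of the share over the stages lay in the 27 intronless members. Intronless members held 0.134 ± 0.0832% of counts in L1 and 0.409 ± 0.116% in adult neuronal IP, whereas those with an intron held 0.0601 ± 0.0130% in L1 and 0.0439 ± 0.00593% in adult neuronal IP.

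**Figure D1:**
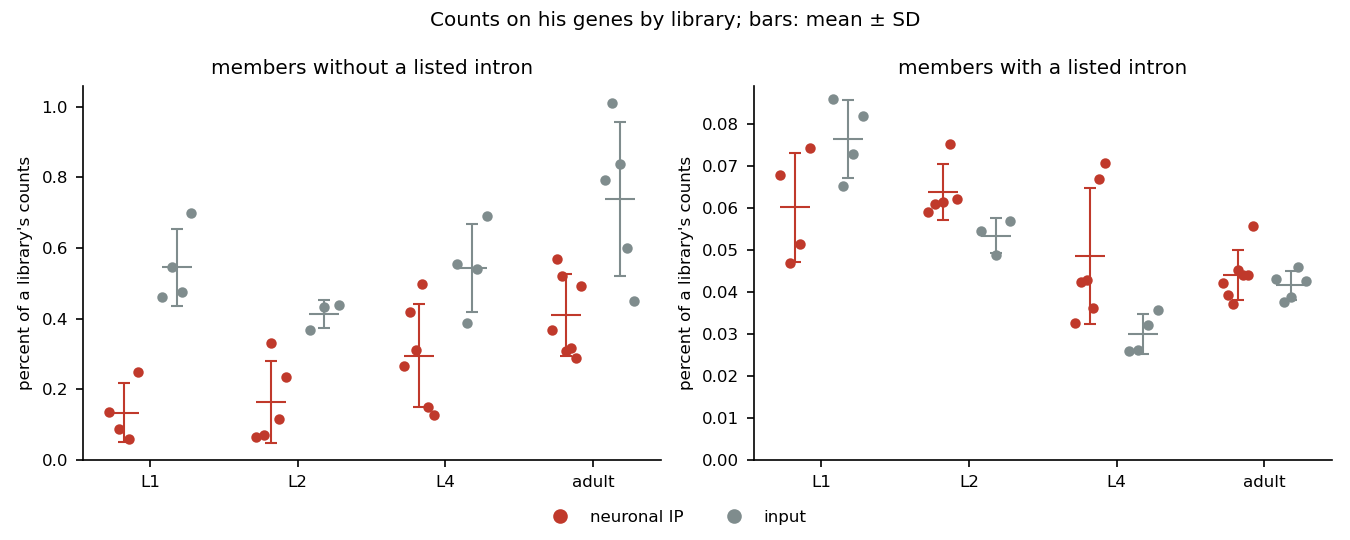
Percent of each library's counts that fell on the 27 members without a listed intron (left) and the 8 with one (right), by stage, for neuronal IP and input; points are libraries and bars the mean ± SD. Intronless members lie higher in input than in neuronal IP at L1 and L2 with no overlap, while members with an intron hold at most 0.0859% of counts in any library.

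Where intronless histone genes were called between neuronal nuclei and the whole preparation, they were lower in neuronal nuclei. At L1, 24 of 35 members were lower in neuronal IP and 0 were higher (edgeR quasi-likelihood test with Benjamini-Hochberg adjustment over 21040 genes, adjusted p under 0.05), where 17.6% of all genes were called lower and 33.9% higher. At L2, 11 were lower and 1 higher (11.2% and 31% of all genes). At L4, 10 were lower and 4 higher (12.8% and 28.8%). In adults, 18 were lower and 4 higher (11.9% and 25.8%). Log2 fold changes, positive where neuronal IP is higher, had a median over the 35 members of -1.74, -1.12, -0.90 and -1.10 at L1, L2, L4 and adult, against 0.39, 0.46, 0.17 and 0.06 over all genes tested. Among the 27 intronless members the numbers called lower were 23, 10, 9 and 17 by stage, and 0 were called higher at any stage.

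At L1 the largest of these differences were in genes of chromosomes I and IV. The H4 gene his-67 had 11.8, 17.3, 12.4 and 29.2 CPM in the 4 L1 neuronal IP libraries, against 81.9, 101, 90.7 and 109 CPM in the L1 inputs. All 4 neuronal IP values lay below all 4 inputs, with a log2 fold change of -2.43 ± 0.43 (SE, adjusted p = 2.9e-05, edgeR). Its neighbour his-68, an H2A gene, differed by -2.57 ± 0.49 (adjusted p = 8.0e-05). The H3 gene his-59 had 45.9, 64.2, 37.7 and 130.2 CPM in L1 neuronal IP, against 236, 318, 306 and 328 CPM in L1 input, again without overlap, for a log2 fold change of -2.09 ± 0.39 (adjusted p = 6.2e-05). In that group L1 neuronal IP library 4 was the highest for both genes. The H4 genes his-64 and his-60 differed by -2.38 ± 0.48 and -2.05 ± 0.39 at L1, the H2B gene his-62 by -2.08 ± 0.42 and the H2A gene his-61 by -1.98 ± 0.41. The H3 gene his-63 differed by -2.02 ± 0.41 and the H2B gene his-48 by -1.83 ± 0.50. At L1 the members not called were his-6, his-32, his-39, his-24, his-35, his-37, his-41, his-69, his-70, his-71 and his-72.

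In adults, the H4 genes his-60 and his-64 were among the 18 called lower, with -1.22 ± 0.31 and -1.35 ± 0.37. The gene his-60 ranged from 335 to 562 CPM with a median of 384 in adult neuronal IP, against 1013, 856, 814, 1163 and 986 CPM in adult input. Every neuronal IP value lay below every input value (adjusted p = 0.0018, edgeR). The H2B gene his-62, by contrast, ranged from 402 to 882 CPM with a median of 751 in adult neuronal IP, against 1373, 1208, 1337, 691 and 478 CPM in adult input. These groups overlapped, and the log2 fold change of -0.64 ± 0.33 was not called (adjusted p = 0.13). The H2A gene his-3, from the chromosome V cluster at 16.04 Mb, ranged from 12.3 to 87.9 CPM with a median of 31.7 in adult neuronal IP, against 146, 179, 119, 48.7 and 33.3 CPM in adult input. In both groups libraries 1 to 3 lay above all the others, and the log2 fold change was -1.50 ± 0.44 (adjusted p = 0.0071). At L4 the H2B gene his-8 had the largest fall, -2.08 ± 0.61 (adjusted p = 0.0060), and its level ran from 3.56 to 24.7 CPM with a median of 13.1 in neuronal IP, against 55.6, 55.6, 92.2 and 14.1 CPM in input. Input library 4 lay within the neuronal IP range there, and exons of his-8 overlap another gene.

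These counts depended on single libraries, with the scaling and the genes tested kept as for all 38 libraries, a setting added after the data were seen. At L1, 15 to 24 members were called when 1 library was left out, with 15 lower without neuronal IP library 3 (15.5% of all genes called lower). At L2, 20 were called lower without neuronal IP library 3, which was low in pan-neuronal genes (12.6% of all genes), and 6 without neuronal IP library 1 or 2 and 7 without input library 2. At L4 6 were lower without neuronal IP library 5 or 6 and 5 without input library 3. With all libraries, 11.2% of all genes were called lower at L2 and 12.8% at L4, so the smallest of these counts lie near the share of all genes. In adults 10 were lower without input library 1 (8.74% of all genes) and 9 without input library 2 (11.2%).

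Subsets of libraries gave fewer calls at kept scaling. Adult libraries 1 to 3 alone gave 4 higher and 2 lower members (21.5% and 5.72% of all genes), and 4 to 7 alone gave 3 higher and 2 lower (19.1% and 5.59%). With scaling recomputed, adult libraries 1 to 3 gave 1 higher and 24 lower (18.9% and 28.8%), where the median log2 fold change of all genes was -0.63, and 4 to 7 gave 2 higher and 2 lower (17.1% and 10.3%). At L4 and kept scaling, libraries 1 to 3 alone gave 3 higher and 1 lower (19.6% and 7.62%), and libraries 4 to 6, with a single input assumed to vary like the other groups, gave 0 by edgeR (12.9% and 0.475%). Same-numbered neuronal IP and input libraries deviated together at every stage. With the replicate number as a block 33, 27, 19 and 26 members were called lower by stage (38.7%, 31.9%, 19.3% and 23.3% of all genes) and 0, 2, 3 and 5 higher (34.4%, 32.4%, 25.4% and 29.9%). In that fit the median log2 fold change of all genes was -0.13 at L1.

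**Figure D2:**
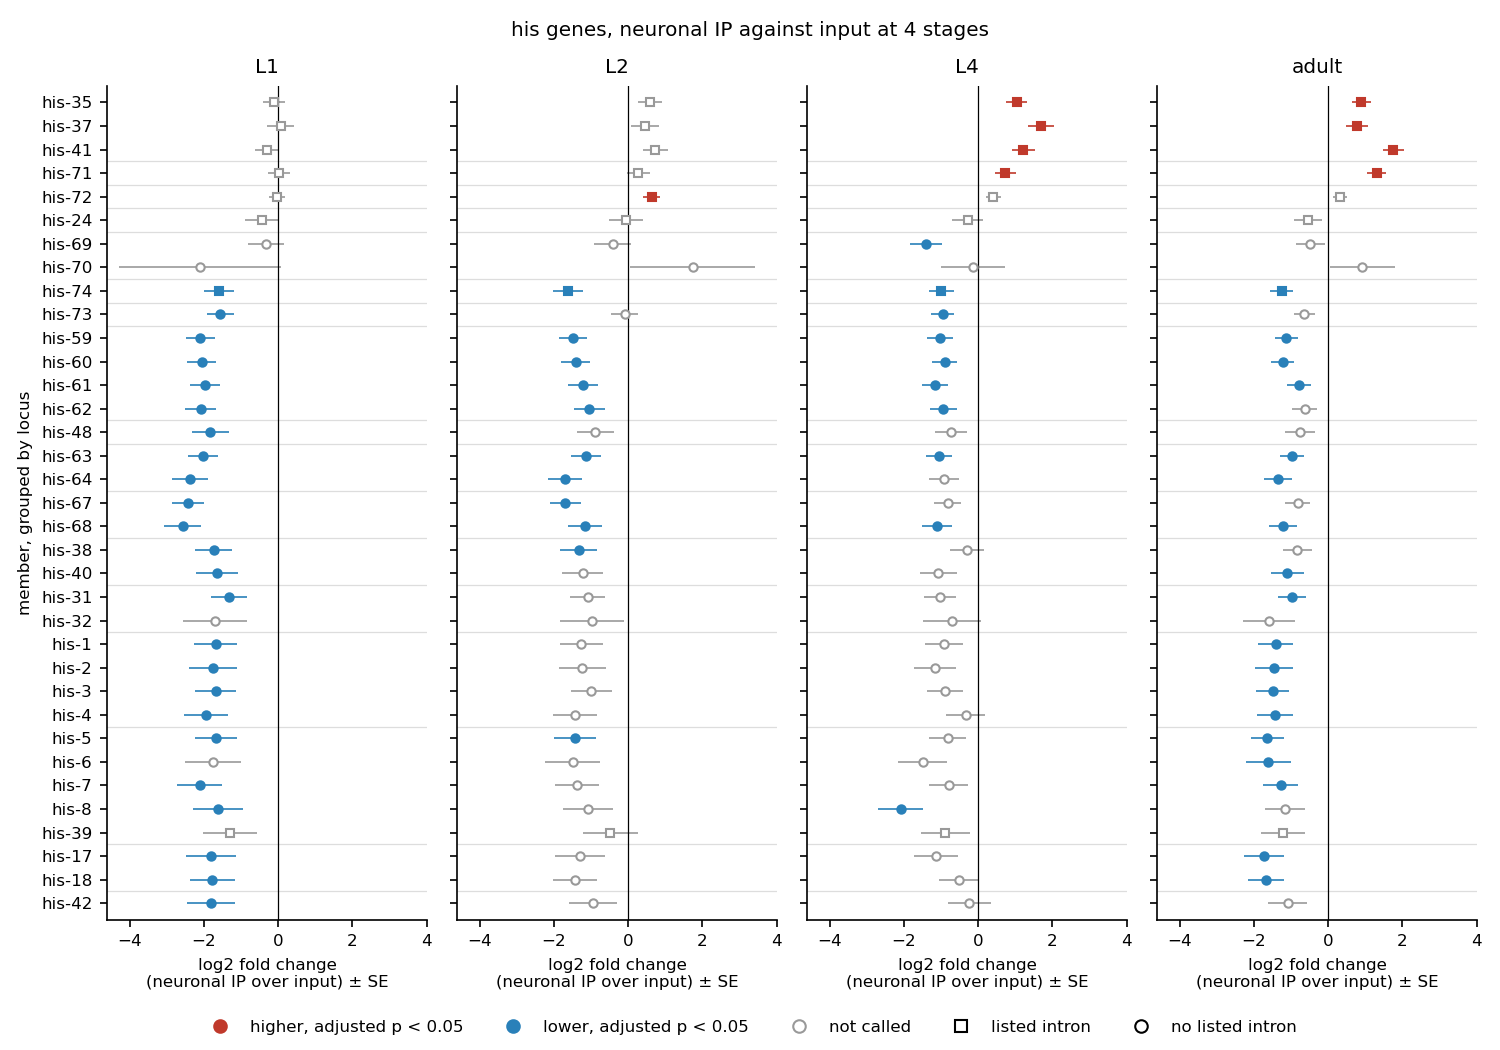
Log2 fold change of neuronal IP over input (± SE, edgeR) for the 35 members, ordered by locus, in 4 panels from L1 to adult; red marks members called higher, blue called lower, open symbols not called, and squares members with a listed intron. At L1 0 of 35 are called higher, and in adults his-35, his-37, his-41 and his-71 are.

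A small set of members with introns went the other way. These were the H2A gene his-35, the H4 gene his-37 and the H2B gene his-41, which are neighbours on chromosome V, and the H3.3 gene his-71 on chromosome X. In the main fit, which has no replicate block, all 4 were called higher in neuronal IP at L4 and in adults, and none was called at L1 or L2. The gene his-41 ranged from 29.2 to 72.1 CPM with a median of 55.1 in adult neuronal IP, against 15.6, 8.003, 14.3, 18.5 and 20.1 CPM in adult input. The 7 neuronal IP values all lay above the 5 inputs, with a log2 fold change of 1.76 ± 0.29 (adjusted p = 4.4e-06, edgeR), and this call was kept under each alternative run. At L1 the same gene had 53.8, 62.3, 66.3 and 125 CPM in neuronal IP, against 96.01, 71.4, 93.1 and 115 CPM in input, which overlapped.

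The gene his-71 ranged from 11.6 to 41.6 CPM with a median of 28.6 in adult neuronal IP, against 10.4, 8.11, 8.13, 11.8 and 18.1 CPM in adult input. Neuronal IP libraries 2 and 3, with 12.5 and 11.6 CPM, fell within the input range, and the log2 fold change was 1.30 ± 0.26 (adjusted p = 9.4e-05, edgeR). It was 0.39 and not called in adult libraries 1 to 3 alone with scaling recomputed, and 0.99 and called with scaling kept. Its L4 value of 0.73 ± 0.28 was not called under RLE scaling (0.62), with the replicate block (0.45) or, at kept scaling, without neuronal IP library 3, 5 or 6 or input library 1, 2 or 3. The gene his-35 ranged from 44.8 to 121 CPM with a median of 93.05 in adult neuronal IP, against 43.2, 27.7, 30.7, 66.7 and 65.7 CPM in adult input. The groups overlapped, and the log2 fold change was 0.89 ± 0.26 (adjusted p = 0.0058, edgeR). With scaling kept it was called whichever adult library was left out, and in adult libraries 4 to 7 alone it was 0.57 and not called. With scaling recomputed it was not called without neuronal IP library 5, 6 or 7 (0.51, 0.45 and 0.36), where the median of all genes moved to -0.38, -0.44 and -0.36.

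The gene his-37 was most apart at L4, where it ranged from 41.5 to 141 CPM with a median of 63.9 in neuronal IP, against 22.8, 16.2, 27.99 and 35.1 CPM in input. No values overlapped, neuronal IP libraries 5 and 6 were the highest, and the log2 fold change was 1.70 ± 0.35 (adjusted p = 0.00017, edgeR). Libraries 5 and 6 have no same-numbered input at L4. The neuronal IP libraries that have one, 1 to 4, had 41.5, 61.2, 66.5 and 50.8 CPM of his-37. Its adult value of 0.78 ± 0.30 (adjusted p = 0.041) was not called with RLE scaling (0.58) or, at kept scaling, without neuronal IP library 1, 4, 6 or 7 or input library 1, 2 or 3. At L4 his-41 differed by 1.22 ± 0.31 and his-35 by 1.04 ± 0.29. Neuronal IP libraries 5 and 6 were again the highest, at 117 and 107 CPM for his-41 and 141 and 173 CPM for his-35. How far these differences rest on the neuronal IP libraries without a same-numbered input was not tested. With scaling kept both L4 calls held whichever L4 library was left out, and neither was made in L4 libraries 4 to 6 alone. With the replicate block, these genes were called lower in neuronal IP at L1, with -0.47 for his-35, -0.31 for his-37, -0.70 for his-41 and -0.32 for his-71, where the median of all genes was also below 0.

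The other H3.3 genes are his-72, his-74, his-69 and his-70. The broadly expressed his-72 had 132, 164, 103, 131 and 98.7 CPM in L2 neuronal IP, against 80.97, 71.2 and 91.1 CPM in L2 input. The groups did not overlap, and the log2 fold change of 0.63 ± 0.23 was called (adjusted p = 0.024, edgeR), but it was not under RLE scaling (0.33), under DESeq2 or, at kept scaling, without neuronal IP library 2 or input library 1 or 2. At the other stages his-72 was not called, though with the replicate block it was lower at L1 (-0.37, adjusted p = 0.010) and higher in adults (0.39, adjusted p = 0.014). The gene his-74 was lower in neuronal IP at all 4 stages, with -1.59 ± 0.41, -1.62 ± 0.40, -0.99 ± 0.35 and -1.25 ± 0.32 at L1, L2, L4 and adult. Its L4 call was lost at kept scaling without neuronal IP library 5 or 6 or input library 2 or 3. The gene his-69 was lower at L4 alone among the 4 stages tested (-1.41 ± 0.43, adjusted p = 0.0079), at 1.51 ± 0.339 CPM in neuronal IP and 4.05 ± 1.84 CPM in input (SD, n = 6 and 4). In L4 libraries 4 to 6 alone the difference was 0.00098 and not called, and 0.0083 with scaling kept. The H3 gene his-73, which lies apart on chromosome II, was lower in neuronal IP at L1 and L4, with -1.55 ± 0.36 and -0.96 ± 0.31, and not called at L2 (-0.09 ± 0.36) or in adults (-0.64 ± 0.28). Its L4 call was lost without input library 3 at kept scaling.

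The linker histone gene his-24, whose product has a known role in germline chromatin, was not called between neuronal IP and input at any stage, with -0.43 ± 0.45, -0.06 ± 0.47, -0.28 ± 0.41 and -0.55 ± 0.37 at L1, L2, L4 and adult. With the replicate block it was lower at L1 (-0.84, adjusted p = 0.00012). In adults it was lower in libraries 1 to 3 alone with scaling recomputed (-1.25) and higher in libraries 4 to 7 alone with scaling kept (1.14). It fell with stage in neuronal nuclei. Levels were 213, 79.1, 107 and 111 CPM in L1 neuronal IP and 95.5, 114, 117, 117 and 98.1 CPM in L2 neuronal IP, then from 22.8 to 51.6 CPM with a median of 31.9 in L4 and from 13.8 to 49.4 CPM with a median of 24.004 in adult neuronal IP. All L4 and adult values lay below all L1 and L2 values. The fall at L4 against L2 was -1.62 ± 0.39 on the log2 scale (adjusted p = 0.0018, edgeR), and adult against L1 gave -2.17 ± 0.39 (adjusted p = 2.8e-05). In input the values were -1.40 ± 0.49 and -2.05 ± 0.44 for the same 2 comparisons.

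Between L1 and L2, no member passed the test. In neuronal IP 0 of 35 were called at L2 against L1 by edgeR, where 3.01% of all genes were called, with 1 higher and 1 lower at an unadjusted p under 0.05 and 0 called by DESeq2. In input 0 were called by edgeR as well (1.26% of all genes), with 0 higher and 3 lower at an unadjusted p under 0.05 and 0 by DESeq2. The larger changes followed. In neuronal IP, L4 against L2 had 12 members higher and 3 lower (16.3% and 9.04% of all genes), and adult against L4 had 11 higher and 1 lower (18.6% and 14.1%). In input, L4 against L2 had 11 higher and 5 lower (23.7% and 20.7%), and adult against L4 had 10 higher and 3 lower (21.3% and 18.2%).

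Over the whole span, adult against L1 in neuronal IP had 14 members higher and 2 lower (23.7% and 29.4% of all genes), and in input 14 higher and 7 lower (27.1% and 31.8%). Medians over the members were 0.27 in neuronal IP and -0.10 in input, against -0.21 and -0.31 over all genes. Scaling moved these splits. With RLE scaling, which moved the median of all genes for neuronal IP against input at L2 to 0.16 and in adults to -0.16, neuronal IP had 7 higher and 2 lower at adult against L4 and 14 and 5 at adult against L1, and input had 9 and 9 at L4 against L2. With scaling on neuron-enriched genes, neuronal IP had 13 higher and 1 lower at L4 against L2 and 16 and 1 at adult against L1, where the median of all genes moved to 0.82.

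The members that were higher in adult than in L1 neuronal IP lay at 8 of the 17 loci. They were all 4 genes of IV 7.49 Mb (his-59 to his-62), his-48, his-63 and his-64 on chromosome IV, his-67 and his-68 on chromosome I, his-73 on II, his-70 on III, his-74 on V and his-38 and his-40 on X. Over the same comparison all 24 genes of a germline and oocyte list were higher, and 0 higher and 11 lower of the 16 pan-neuronal genes; of 8 genes each, 6 intestine and 5 hypodermis genes were higher and 0 lower, 3 body wall muscle genes were higher and 1 lower, and 0 glia genes were higher and 3 lower. Of all genes tested, 23.7% were higher and 29.4% lower in that comparison. The part of these cells in the histone values was not tested. In input the 7 members lower in adults than at L1 were his-7, his-24, his-35, his-37, his-41, his-71 and his-72. The H3.3 gene his-74 had the largest log2 fold change of these apart from his-70. It had 1.48, 5.76, 2.58 and 3.15 CPM in L1 and 3.99, 3.35, 9.002, 5.58 and 6.201 CPM in L2 neuronal IP, and ranged from 14.8 to 63.3 CPM with a median of 21.6 in L4 and from 66.3 to 181 CPM with a median of 114 in adult neuronal IP. The adult values all lay above the L4 values and the L4 values above the L1 and L2 values, and the log2 fold change of adult against L1 was 5.22 ± 0.45 (adjusted p = 1.6e-11, edgeR). In input it was 4.88 ± 0.45, with 394, 252, 275, 269 and 257 CPM in adults and 6.44, 13.9, 11.7 and 7.13 CPM at L1.

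The genes at IV 7.49 Mb had the largest of their 3 steps between L2 and L4. In neuronal IP, his-62 had 39.3, 59.9, 42.8 and 98.2 CPM at L1 and 51.2, 50.1, 176, 74.4 and 156 CPM at L2, where libraries 3 and 5 were the highest. It ranged from 130.4 to 511 CPM with a median of 346 at L4, where libraries 5 and 6 overlapped L2, and from 402 to 882 CPM with a median of 751 in adults. The log2 fold changes were 1.68 ± 0.36 at L4 against L2 (adjusted p = 0.00046, edgeR), 1.01 ± 0.32 at adult against L4 (adjusted p = 0.013) and 3.45 ± 0.42 at adult against L1. For his-59, his-60, his-61 and his-63 the values at L4 against L2 were 1.89 ± 0.34, 1.53 ± 0.34, 1.93 ± 0.35 and 1.98 ± 0.36, all called. The adult against L4 calls of his-48, his-61, his-62 and his-63 were lost under RLE scaling, and those of his-48, his-61 and his-63 at kept scaling without adult neuronal IP library 2 or 7 or L4 neuronal IP library 5 or 6. That of his-48 was also lost without library 1 of either group and that of his-61 without adult library 3.

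The X chromosome pair his-38 (H4) and his-40 (H3) changed later. In neuronal IP, his-38 had 5.59, 2.54, 0.744 and 9.97 CPM at L1 and 2.26, 2.66, 6.76, 2.05 and 6.81 CPM at L2, ranged from 2.04 to 5.01 CPM with a median of 3.61 at L4 and from 17.1 to 53.6 CPM with a median of 35.1 in adults. All 7 adult values lay above every younger one, and adult against L4 gave 3.25 ± 0.43 in neuronal IP (adjusted p = 2.0e-07, edgeR) and 3.76 ± 0.53 in input. For his-40 these were 2.52 ± 0.46 and 2.55 ± 0.56. The chromosome I pair rose in both steps, with 1.91 ± 0.37 and 1.97 ± 0.34 for his-67 and 1.87 ± 0.41 and 1.88 ± 0.37 for his-68 in neuronal IP.

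**Figure D3:**
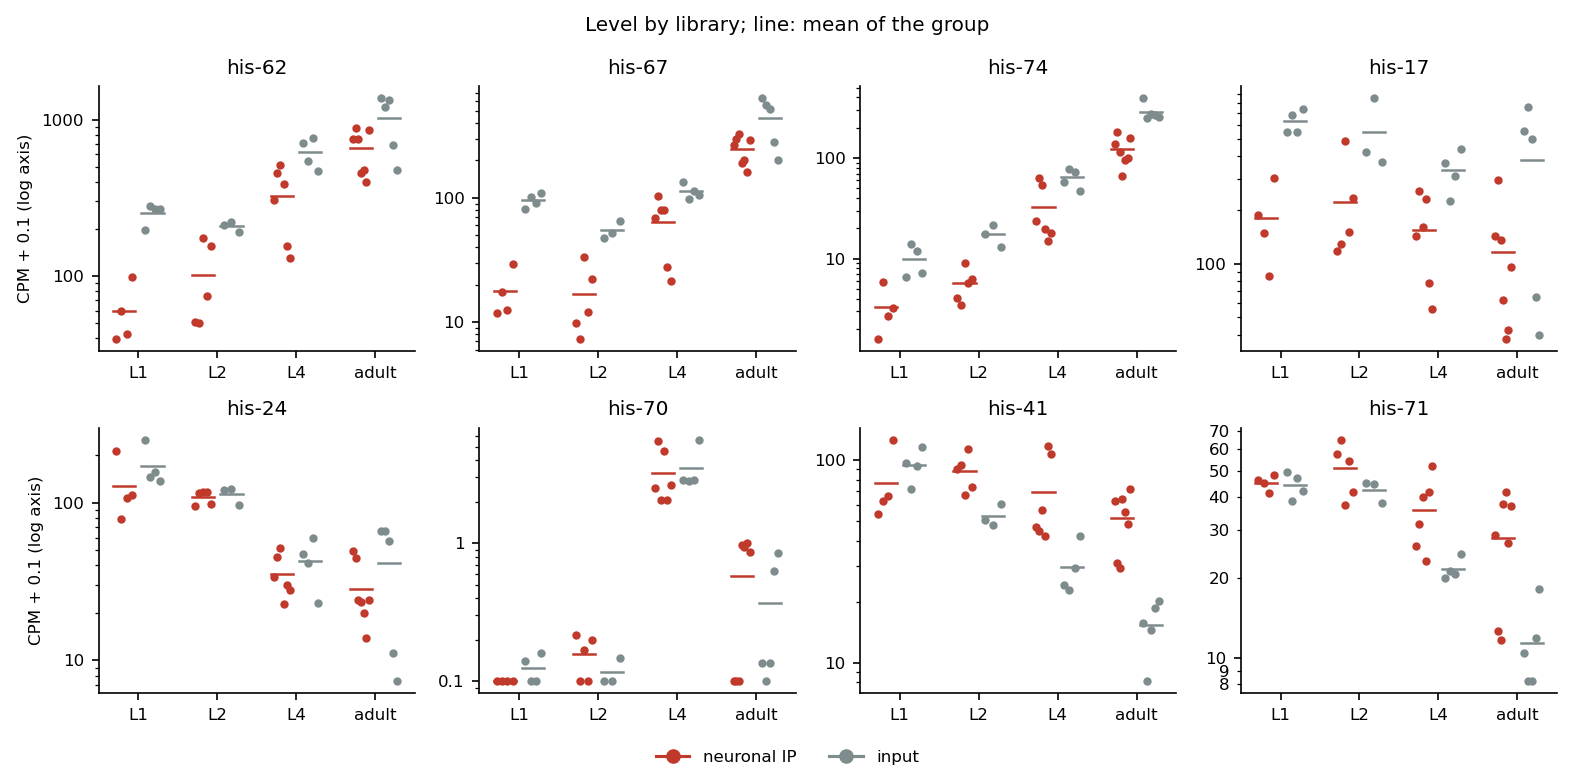
CPM + 0.1 on a log axis of his-62, his-67, his-74, his-17, his-24, his-70, his-41 and his-71 in every control library by stage, neuronal IP left of input; points are libraries and lines group means. Adult neuronal IP values of his-74 all lie above the L4 values, and his-24 falls in both sample types.

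The H3.3 gene his-70 was close to absent in the young larvae. It had 0 counts in all 4 L1 neuronal IP libraries and 2 counts in total in L1 input, then 6 counts over the L2 neuronal IP libraries and 1 over the L2 inputs. At L4 the 6 neuronal IP libraries had 24, 69, 49, 139, 45 and 40 counts. Adult neuronal IP libraries had 0, 0, 0, 13, 18, 34 and 36 counts, with 0 in libraries 1 to 3. In L4 input there were 35, 33, 26 and 98 counts and in adult input 1, 0, 1, 9 and 13, so that the gene was highest at L4 in both sample types. Adult against L4 gave -2.66 ± 0.78 in neuronal IP (adjusted p = 0.0075, edgeR) and -3.71 ± 0.99 in input (adjusted p = 0.0030). Without the adult libraries at 0 counts, the neuronal IP value was -1.96 and still called. The summed level of 10 sperm genes was likewise highest at L4 in both sample types. It was 119 ± 7.37, 129 ± 44.9, 349 ± 69.04 and 159 ± 30.6 CPM in neuronal IP at L1, L2, L4 and adult, against 17.8 ± 2.04, 15.8 ± 3.75, 497 ± 107 and 100.5 ± 97.8 CPM in input. In neuronal IP the sum lay above input at L1 and L2, where his-70 was close to absent, so the 2 did not move alike there. In adult input that sum ran between 24.3 and 41.3 CPM in libraries 1 to 3 and between 169.6 and 238.4 CPM in libraries 4 and 5. Hypodermis genes also summed highest at L4 in both sample types, at 4229 ± 2772 CPM in neuronal IP and 4788 ± 1506 CPM in input. The part of sperm or hypodermis in the his-70 values was not tested.

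The 14 members at V 16.04 Mb, V 8.53 Mb, V 8.90 Mb, IV 8.33 Mb and II 13.83 Mb were not among those called between adult and L1 neuronal IP. The H3 gene his-17 was singled out after its values were seen. It had 189, 148, 85.7 and 303 CPM in L1 and 118, 128, 486, 149.8 and 233 CPM in L2 neuronal IP, and ranged from 55.4 to 257 CPM with a median of 152 in L4 and from 37.6 to 294 CPM with a median of 95.2 in adult neuronal IP. In adult input it had 556, 753 and 499 CPM in libraries 1 to 3 and 64.99 and 39.7 CPM in libraries 4 and 5, with no overlap between these. The H3 gene his-32, also chosen after its values were seen, had its lowest group mean at L4. The 6 L4 neuronal IP libraries had 1.59, 3.2998, 2.58, 24.7, 8.901 and 3.76 CPM, against 4.88, 4.35, 3.74 and 35.9 CPM in the 4 inputs, and library 4 was the highest of both. Its log2 fold change at L4 against L2 was -2.14 ± 0.74 in neuronal IP (adjusted p = 0.031, edgeR) and -2.42 ± 0.93 in input (adjusted p = 0.034). Without library 4 these were -3.03 and -3.93, and among the L4 libraries the call was lost without neuronal IP library 1, 2, 3 or 6 and without input library 1, 2 or 3 (scaling kept).

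The genes his-35, his-37, his-41 and his-71 fell in input from L1 to adult, and of them his-71 was called in neuronal IP. At adult against L1 they gave -0.54 ± 0.26, -0.57 ± 0.31, -0.57 ± 0.28 and -0.69 ± 0.26 in neuronal IP, with an adjusted p of 0.025 for his-71 (edgeR). In input the values were -1.54 ± 0.29, -1.28 ± 0.34, -2.62 ± 0.32 and -1.97 ± 0.29, all called. The neuronal IP call of his-71 turned to 0.38 under scaling on neuron-enriched genes, and was lost without L1 neuronal IP library 4 or adult neuronal IP library 2 or 3 and in adult libraries 4 to 7 (-0.34 with scaling kept). The authors' size-adjusted values, used below for the mutants, had higher adult than L1 control means for all 4 genes after median-ratio factors. For his-71 these were 306 ± 44.7 at L1 and 474 ± 268 in adults (SD, n = 4 and 7). The direction in neuronal IP thus depended on the scaling. The difference between the changes, neuronal IP minus input, was called for 3 members, all higher (8.31% and 7.79% of all genes were higher and lower). These were his-41 (2.05 ± 0.43, adjusted p = 0.0025), his-67 (1.62 ± 0.54, adjusted p = 0.036) and his-71 (1.28 ± 0.39, adjusted p = 0.024). That of his-67 was not called under RLE scaling (1.44) or, at kept scaling, without L1 neuronal IP library 1, 2 or 3, L1 input library 2, 3 or 4 or adult input library 4 or 5. The member median of this difference was 0.71, against 0.16 over all genes. With the replicate block 32 members were called higher and 0 lower, where 45.6% of all genes were higher, 2.75% were lower, and their median was 1.01. At kept scaling 1 was called higher with adult libraries 1 to 3 alone (4.3% of all genes) and 6 with adult libraries 4 to 7 alone (4.96%), and 7 without L1 neuronal IP library 4.

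The make-up of the RNA counted on the 35 members with a location of their own shifted with stage; the 37 shared copies were not measured. Chromosome IV genes made up 24.2% ± 2.99, 27.7% ± 7.15, 60.7% ± 9.34 and 68.7% ± 4.16 of the summed CPM of these 35 in neuronal IP at L1, L2, L4 and adult, against 34.8% ± 1.68, 37.04% ± 6.47, 68.7% ± 1.204 and 68.97% ± 8.101 in input. Chromosome V genes made up 54.5% ± 1.66, 53.002% ± 2.07, 28.6% ± 6.52 and 18.7% ± 4.92 in neuronal IP, against 52.6% ± 1.49, 52.7% ± 8.32, 24.5% ± 1.22 and 21.1% ± 7.33 in input. Chromosome IV thus took the larger share from L4 on in both sample types. Members with a listed intron made up 34.2% ± 9.54 of the members' CPM in L1 neuronal IP, against 12.5% ± 2.48 in L1 input, and 10.3% ± 2.798 in adult neuronal IP, against 5.78% ± 2.05 in adult input. The share of the measured H4 genes was 21.4% ± 3.69 in L1 and 25.8% ± 2.895 in adult neuronal IP, against 25.2% ± 1.98 and 29.9% ± 7.34 in input. That of the measured H2B genes was 13.8% ± 3.43 and 24.6% ± 1.92 in neuronal IP, against 14.6% ± 1.67 and 19.1% ± 4.25 in input.

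**Figure D4:**
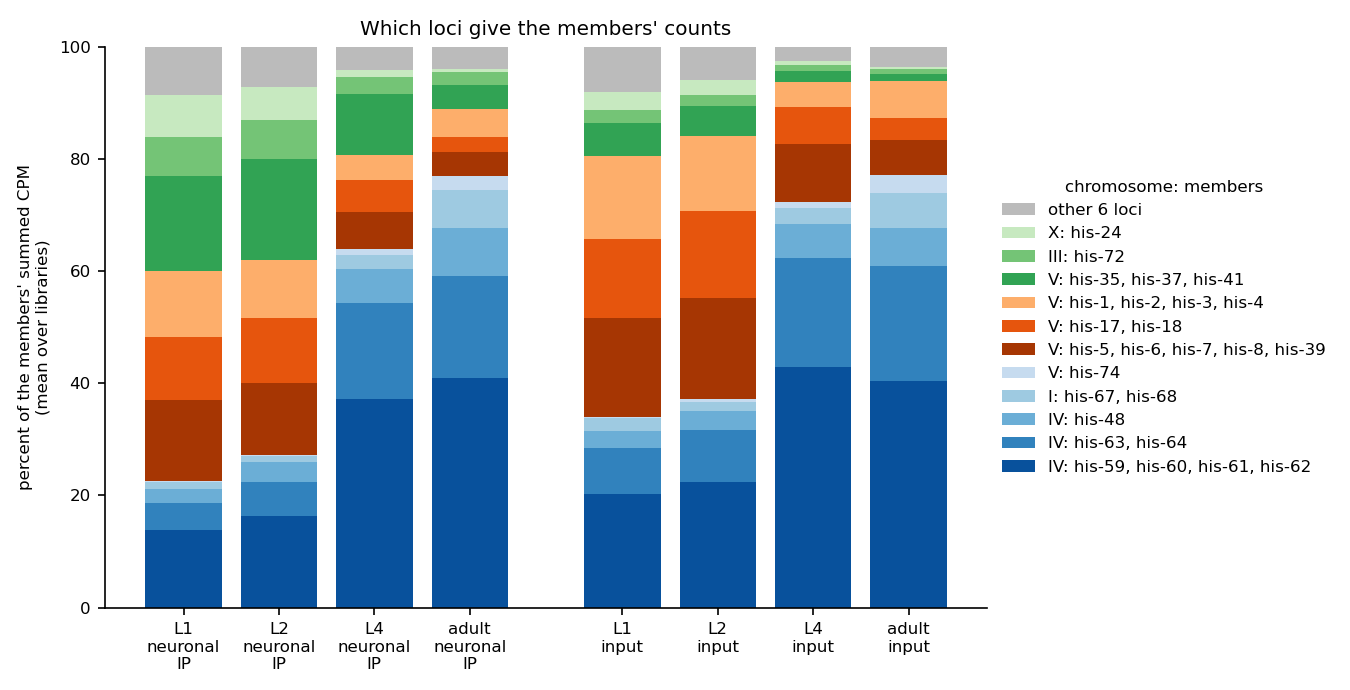
Percent of the summed CPM of the 35 measured members contributed by each of 11 loci and by the other 6 together, as stacked bars of group means, by stage for neuronal IP and input. The chromosome IV loci take most of each bar at L4 and in adults, and the chromosome V loci most at L1 and L2.

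Per kilobase of listed coding length, the highest members in adult neuronal IP were his-62 at 1761 ± 548 CPM per kb, his-59 at 1357 ± 308, his-63 at 1338 ± 334 and his-60 at 1328 ± 250.2 (SD, n = 7). The last 3 lay within their spread of each other. In adult input his-60 was at 3097 ± 444 CPM per kb, his-59 at 2975 ± 492 and his-64 at 2763 ± 385 (SD, n = 5), also within their spread. At L1 the H3 genes his-17 and his-6, both named after their values were seen, were highest in neuronal IP at 441 ± 222 and 401 ± 167 CPM per kb, and in input at 1533 ± 232 and 1354 ± 158 CPM per kb (SD, n = 4 each).

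Genes around the histones moved over the same stages. Of all genes tested, 17.6%, 11.2%, 12.8% and 11.9% were called lower in neuronal IP than in input by stage. Called higher were 33.9%, 31%, 28.8% and 25.8%. Of 14 genes tested that serve histone supply, such as the stem-loop binding protein gene and chaperones, 8, 1, 11 and 9 were lower in neuronal IP than in input by stage, and 1, 1, 0 and 0 higher. Of 30 genes of S phase and division, 22, 14, 26 and 20 were lower by stage, and 0, 1, 1 and 0 higher. At adult against L1 in neuronal IP 28 of these were higher and 0 lower (23.7% and 29.4% of all genes), and the median log2 change was 2.39. Of 11 tested genes for histones with other names, 4, 3, 4 and 6 were lower in neuronal IP by stage, and 1, 0, 2 and 1 higher. The H1 gene hil-1 was higher in adult neuronal IP by 1.16 ± 0.47 (adjusted p = 0.048, edgeR). At adult against L1 in neuronal IP 5 of the 11 were higher, among them htz-1, which codes for H2A.Z, and the centromeric H3 genes hcp-3 and cpar-1, and hil-3 and hil-7 were lower.

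Markers of other cells moved with stage as well. The summed level of 24 germline and oocyte genes was 229 ± 22.4, 325 ± 34.5, 1705 ± 1011 and 9216 ± 2607 CPM in neuronal IP at L1, L2, L4 and adult, against 355 ± 44.9, 496 ± 90.8, 4713 ± 2116 and 17335 ± 5780.3 CPM in input. At adult against L1 in neuronal IP their median log2 change was 6.61. Against input, 19, 11, 22 and 9 of them were lower in neuronal IP by stage, and 0 higher. In adult input the sum ran between 17075 and 23662 CPM in libraries 1 to 3 and between 11130 and 12160 CPM in libraries 4 and 5. Of all genes tested, 17.6%, 11.2%, 12.8% and 11.9% were called lower in neuronal IP by stage, and 33.9%, 31%, 28.8% and 25.8% higher. The sperm and hypodermis counts that follow lie near or below these shares. Of the 10 sperm genes, 3, 3, 0 and 1 were higher in neuronal IP than in input by stage, and 0, 0, 2 and 0 lower. Of 8 intestine genes 5, 5, 3 and 2 were lower at the 4 stages and 0 higher, of 8 body wall muscle genes 6, 0, 3 and 0 were lower and 0 higher, of 8 hypodermis genes 1, 1, 0 and 0 were lower and 1, 0, 0 and 0 higher, and of 8 glia genes 1, 0, 0 and 0 were lower and 1, 1, 3 and 4 higher. The summed level of the intestine genes was 683 ± 128, 1146 ± 406, 2042 ± 985 and 52991 ± 18278 CPM in neuronal IP by stage, against 3389 ± 606, 3167 ± 411, 4317 ± 772 and 136186 ± 52566 CPM in input. It was thus highest in adults in both sample types. The list holds the yolk protein genes vit-2, vit-5 and vit-6. As for the other lists, its sum does not tell the amount of a tissue from the level of its genes. Hypodermis genes summed to 90.3 ± 41.4, 451 ± 269, 4229 ± 2772 and 159 ± 132 CPM in neuronal IP, against 308 ± 160.4, 935 ± 749.8, 4788 ± 1506 and 134 ± 27.5 CPM in input, highest at L4. Body wall muscle genes summed to 7122 ± 1348, 11806 ± 4325, 9755 ± 3605 and 8974 ± 3279.6 CPM in neuronal IP, against 12369 ± 1116, 16436 ± 4051, 16736 ± 4233 and 7549.6 ± 978 CPM in input. Glia genes summed to 185 ± 62.3, 199 ± 37.3, 152 ± 26.4 and 99.3 ± 42.3 CPM in neuronal IP, against 259.9 ± 52.1, 181 ± 22.1, 99.1 ± 34.8 and 58.8 ± 9.58 CPM in input, lowest in adults. The part of such cells in the histone values of neuronal IP was not tested. Pan-neuronal genes summed to 14758 ± 1971, 11386 ± 5103, 7802 ± 2811 and 8589 ± 4157 CPM in neuronal IP by stage, against 2233 ± 344, 1731 ± 103, 839 ± 45.8 and 752 ± 175 CPM in input. The part of this change in the histone values was not tested either.

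The genes whose pattern was nearest to the summed level of the H2A, H2B, H3 and H4 members other than his-35 and his-73 were sought by Pearson correlation of log2(CPM + 1) group means. Over the 8 control groups these were pas-1, a proteasome subunit gene (r = 0.994), hpo-19 (r = 0.988), F22B5.10 (r = 0.987), C56E6.2 (r = 0.985) and tald-1, a transaldolase gene (r = 0.984). These are descriptions over group means that share libraries. The core histone sum had group means of 1433, 1663, 2851 and 4571 CPM in neuronal IP at L1, L2, L4 and adult, against 4877, 3787, 5421 and 9451 CPM in input. For pas-1 they were 33.2, 39.9, 50.2 and 66.7 CPM in neuronal IP, against 70.6, 58.4, 74.9 and 111 CPM in input.

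The mutant libraries, which bear on how the timing genes lin-4, lin-14 and lin-28 act in neurons, could be read for 4 members. The lin-4 microRNA represses lin-14 and lin-28, whose gain-of-function alleles escape that repression. Only his-35, his-37, his-41 and his-71 were among the 7974 genes of the authors' size-adjusted table, which was analysed on a log2(value + 1) scale with limma after dividing each library by a median-ratio factor. Against control neuronal IP of the same stage, 0 of 4 were called in L1 lin-4 null (0.0651% of all genes), adult lin-4 null (7.86%), adult lin-14 gof (19.3%) and adult lin-28 gof (0.0163%). Adult lin-4 null and lin-14 gof animals were collected at 57 ± 2 hours and adult controls at 53 ± 2 hours. Genotype and hours after plating cannot be told apart in those comparisons. At an unadjusted p under 0.05 there were 1 lower in L1 lin-4 null, 0 in adult lin-4 null, 0 in adult lin-14 gof and 4 higher in adult lin-28 gof.

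Values below are the authors' size-adjusted values divided by the median-ratio factor of the library. In the adult libraries titled lin-28 gof, whose genotype label names lin-14, his-35 had 3640.3, 2685 and 1731 in the 3 libraries, against a range from 637 to 2626 with a median of 1497 in adult controls. Before that division the authors' values in the 3 libraries were 2474, 2239 and 1609. The log2 difference on this scale was 0.98 ± 0.32 (SE, adjusted p = 0.51, limma). For his-37, his-41 and his-71 it was 0.99 ± 0.35, 0.82 ± 0.35 and 0.82 ± 0.39 there. Among adult controls, libraries 1 to 3 lay below libraries 4 to 7 for all 4 genes, without overlap. For his-35, libraries 1 to 3 had 1137.6, 800.2 and 637, against 1496.6 to 2626 in libraries 4 to 7. For his-71 they had 291, 180.3 and 164.8, against 539.2 to 799.1, and the lin-28 gof libraries had 807.8, 891.1 and 492.6. The part of this split in the adult mutant differences was not tested. In adult lin-4 null the differences were 0.33 ± 0.29, 0.31 ± 0.31, 0.40 ± 0.32 and 0.50 ± 0.35 for his-35, his-37, his-41 and his-71. In adult lin-14 gof they were 0.10 ± 0.27, 0.18 ± 0.29, 0.12 ± 0.30 and 0.33 ± 0.33. In L1 lin-4 null they were -0.25 ± 0.36, -0.80 ± 0.38, -0.45 ± 0.39 and -0.06 ± 0.43. For his-37 the 3 lin-4 null L1 libraries had 357, 269 and 351, against 547, 429, 499.8 and 852 in the 4 L1 controls. Same-numbered L1 libraries deviated together, and with the replicate block his-37 was called lower, at -0.60 (adjusted p = 0.038). With standard errors of this size, a missing call does not show that mutants and controls are alike.

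**Figure D5:**
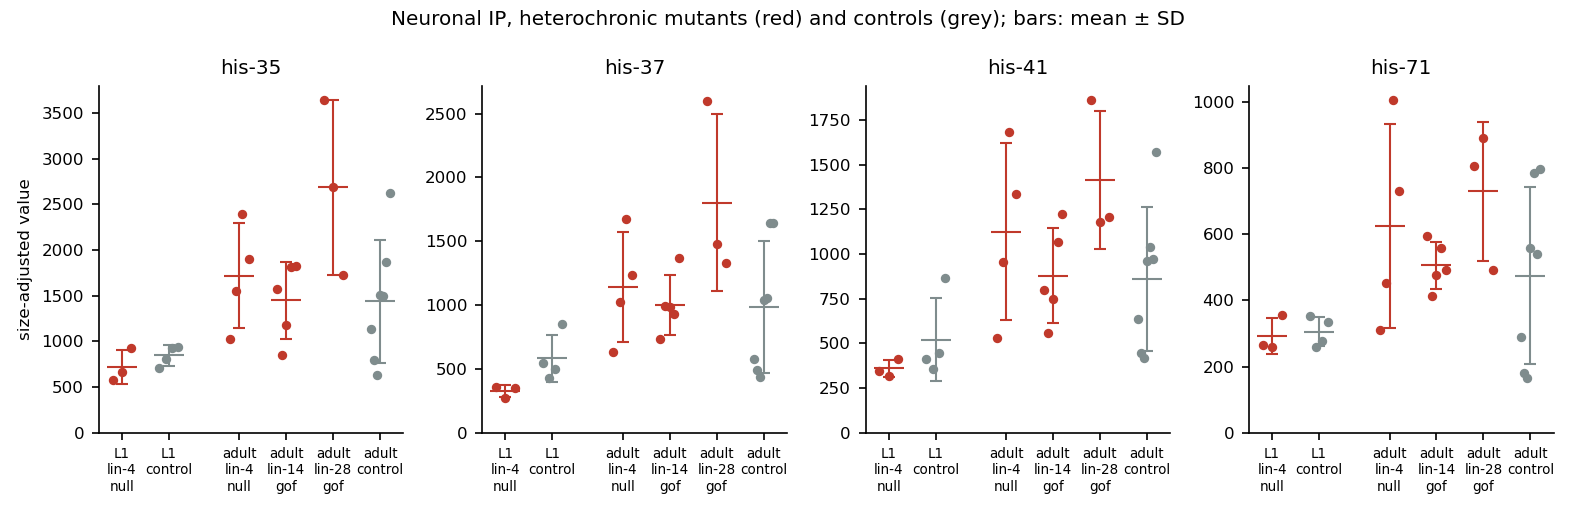
Size-adjusted values, after division by a median-ratio factor, of his-35, his-37, his-41 and his-71 in L1 lin-4 null beside L1 control and in adult lin-4 null, lin-14 gof and lin-28 gof beside adult control neuronal IP; points are libraries and bars the mean ± SD. In adult lin-28 gof the means lie above the adult control for all 4 genes, and none is called after adjustment. Adult control libraries 1 to 3 lie below adult control libraries 4 to 7 for all 4 genes.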

How the data were processed

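Raw counts per gene of 38 control libraries were deposited by the authors, who counted reads with featureCounts of Subread per the submitters' processing notes. Not given in the sources used here are the genome build, the library preparation and the handling of strand and of reads with several matches. The listed gene length in bases is that of the deposited count table. Size-adjusted values of 7974 genes, a score with no fixed unit, were deposited by the authors for neuronal IP, and DESeq2-normalized signal values, also deposited by the authors, served as an alternative for the mutants. Library totals ran between 8582120 and 53251753 counts; precision at low counts covers counting error only.

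Counts were tested with the quasi-likelihood test of edgeR 4.0.16 (R 4.3.3) over all 38 libraries, with TMM scaling, filterByExpr at a minimum count of 10, and Benjamini-Hochberg adjustment over 21040 genes, called at 0.05. Mutants were compared with limma 3.58.1 on log2(value + 1) of 26 libraries and 6148 genes with at least 10 in 3 libraries, after median-ratio factors from 5432 genes. DESeq2 1.42.0, RLE scaling, scaling on neuron-enriched genes, no filter, fits of the compared groups alone, other pseudocounts, subsets and left-out libraries were alternatives, the last 2 with scaling recomputed and, added after the data were seen, with scaling and genes kept. The fitting code was first tested on simulated data.

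Deviations of same-numbered neuronal IP and input libraries correlated at 0.17 to 0.78, so the numbers pair them at all 4 stages, and those of L1 lin-4 null and control libraries at 0.19 to 0.44. The main fits compared group means and did not use this pairing, which only the fits with the replicate block used. Members, lists and tests were chosen with earlier results of these data known. Genes named with values were the variants, the 2 members of highest mean CPM in each core class, and the 2 smallest p-values in each direction of each comparison; his-6, his-17 and his-32 were added after their values were seen. Gene classes were assigned from general knowledge.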

Additional observations from a re-analysis of the deposited data

Results flagged for a closer look

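In 8 of 168 groups of 4 to 10 libraries (4.76%), 1 library of a named member stood apart by Dixon's test, where chance gives about 5%. L1 neuronal IP library 1 was low for his-35, at 91.8 CPM, against 136.2 to 140.3 CPM in the others. L1 neuronal IP library 4 was high for his-37, at 123.2 CPM. L4 input library 4 was high for his-35, at 74.9 CPM, and for his-70, at 5.49 CPM. Adult input library 1 was high for his-74, at 394.5 CPM. L1 input library 4 was high for his-61, at 214.5 CPM. L1 input library 1 was low for his-62, at 196.3 CPM, and high for his-8, at 67.4 CPM.

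The adult against L1 change differed between neuronal IP and input, by the interaction test of edgeR, for his-41 (2.05), his-67 (1.62) and his-71 (1.28) on the log2 scale. These were 3 of 35 members, near the share of all genes (8.31% called higher and 7.79% lower). The call of his-67 was lost under RLE scaling and, at kept scaling, without any of several single libraries.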

How the results depend on the processing

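Of 8628 values of single members under the alternatives, 7837 kept direction and side of the threshold, 507 lost a call, 273 gained one and 11 called values changed sign. Numbers of members called moved by over 1.5 times as follows, and the cause was not tested. The share of all genes called is not given here for each setting, so these numbers alone are no result about the members. With no filter, neuronal IP against input gave 20 at L2 and the adult against L1 difference gave 6. Scaling on neuron-enriched genes gave 1 for neuronal IP L2 against L1. DESeq2 gave 22 for neuronal IP against input at L2. Fits of the compared groups alone gave 22 there, 7 for neuronal IP adult against L4, 2 for input L2 against L1, 28 for input L4 against L2 and 16 for the difference. With the replicate block, neuronal IP against input gave 29 at L2 and 22 at L4, input L2 against L1 gave 2, the difference 32, L1 lin-4 null 1 and adult lin-28 gof 4; numbers do not pair libraries between stages or for the adult mutants. Adult libraries 1 to 3 gave 1 for the difference. Adult libraries 4 to 7 gave 4 for neuronal IP against input in adults, 8 for input adult against L4 and 6 for the difference. L4 libraries 1 to 3 gave 4 for neuronal IP against input at L4, and L4 libraries 4 to 6 gave 0 there, 9 for neuronal IP L4 against L2, 1 for input L4 against L2 and 4 for input adult against L4. Leaving out 1 library, with scaling recomputed, gave 15 to 28 for neuronal IP against input at L1, 6 to 23 at L2 and 12 to 31 in adults, 0 to 1 for neuronal IP L2 against L1 (1 without L2 neuronal IP library 2), 7 to 13 for neuronal IP adult against L4 (7 without L4 neuronal IP library 1, 5 or 6) and 2 to 5 for the difference (5 without L1 neuronal IP library 4). Recomputing also moved the median log2 fold change of all genes (to -0.44 for neuronal IP against input in adults without neuronal IP library 6), so library and scaling cannot be told apart there. With scaling and genes kept, added after the data were seen, the numbers were 15 to 24 at L1, 6 to 21 at L2, 9 to 18 at L4 and 12 to 25 in adults for neuronal IP against input, 10 to 15 for input L4 against L2 (10 without L2 input library 2), 8 to 14 for neuronal IP adult against L4 (8 without adult neuronal IP library 2), 0 to 1 for neuronal IP L2 against L1 and 2 to 7 for the difference. Subsets then gave 6 (adult 1 to 3) and 5 (adult 4 to 7) for neuronal IP against input in adults, 1 and 6 for the difference, and 4 (L4 1 to 3) and 0 (L4 4 to 6) for neuronal IP against input at L4; L4 4 to 6 gave 9 for neuronal IP L4 against L2, 1 for input L4 against L2 and 5 for input adult against L4.

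Changes of sign at adult against L1 in neuronal IP were his-71 (0.38) and his-72 (0.87) with scaling on neuron-enriched genes. With the replicate block, neuronal IP against input at L1 turned to -0.31 for his-37 and -0.32 for his-71, and the adult against L1 difference of his-24 to 1.28, and in adult libraries 4 to 7 to 1.77. In L4 libraries 4 to 6, his-69 in neuronal IP against input at L4 turned to 0.00098. With scaling kept, adult libraries 4 to 7 gave 1.14 for his-24 in neuronal IP against input, 1.57 for its difference and -1.22 for his-8 in neuronal IP adult against L1, and L4 libraries 4 to 6 gave 0.0083 for his-69 at L4. Near-identical histone copies and low counts, as for his-70, limit what can be read.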
